A study of Mus musculus with 27 samples.

Results

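The genes examined here encode mitochondrial ribosomal proteins, and their transcripts were measured in epididymal adipose tissue (EAT), the visceral fat beside the testis, of mice on 3 diets. Members were all genes whose symbol in the array's probe annotation was Mrpl or Mrps followed by a number, each read from a probe set of 1 gene and, where a gene had several, from the probe set whose mean over the 27 arrays was highest. The rule gave 76 genes of the 18193 tested, 47 named for the large subunit (Mrpl) and 29 for the small subunit (Mrps). Mrpl30 and Mrpl53 were found only on probe sets shared with other genes and were not measured. All mice were male C57BL/6J, 5 weeks old on arrival and kept for 1 week on a standard diet. They then received for 18 weeks a control diet (AIN93G), a Western-style diet with 39.9% of energy from fat and 34.0% from sucrose and with added cholesterol, or that Western diet with 0.05% quercetin, a flavonol of many vegetables (9 mice per diet). RNA of each mouse was hybridised to 1 Affymetrix mouse genome array. Mice were housed 3 to a cage and cages are not given in the labels, so the p-values do not take the cage into account.

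The mitochondrial ribosome (mitoribosome) reads the messenger RNAs of mitochondrial DNA, which encode core subunits of the respiratory chain complexes and of ATP synthase. Its RNA comes from mitochondrial DNA, but all of its proteins are encoded in the nucleus, translated in the cytosol and imported. Some are counterparts of bacterial ribosomal proteins and others exist only in mitochondrial ribosomes. In white adipocytes the respiratory chain serves fat storage and breakdown, and mitochondrial content is known to fall in the fat of obese rodents.

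The tissue label was checked first. The adipocyte markers measured, 6 of the 8 listed, summed to a signal between 40020 and 49030 on every array. Markers of other tissues were high on single arrays. The summed signal of testis transcripts was 51190 in control replicate 6 and at most 4456 on any other array, control replicates 2 and 4 carried smooth muscle transcripts (22190 and 28800), and western replicates 4 and 6 carried liver transcripts (23750 and 12630). The summed signal of 9 macrophage markers was 5864 to 14360 in control mice, 12400 to 26430 in mice fed the Western diet and 8080 to 20840 in mice given quercetin. In bulk tissue, fewer cells of a type and less RNA per cell cannot be told apart. The counts of members that passed and the members' medians are therefore also given without the 5 arrays high in testis, smooth muscle or liver transcripts. Values of single genes are those of all arrays unless stated otherwise. The calls on genes that changed without these 5 arrays are listed after the markers of other cell types.

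Of the 76 genes, 67 had a promoter window in RefSeq (GRCm38.p6), 250 bases before to 50 bases after the start. Each window was searched on both strands for 3 short motifs, the NRF1 core GCGCATGCG, the ETS core CCGGAAGT found in GABPA sites, and the YY1 core AAGATGGCG, 3 factors known for nuclear genes of mitochondrial proteins. At least 1 of these was in the window of 26 genes (38.8%), against 7.48% of the 27025 genes with a window. The NRF1 core was in 7 (10.4%, against 1.95% of all genes), the ETS core in 12 (17.9%, against 4.31%) and the YY1 core in 8 (11.9%, against 1.64%). Among the Mrpl windows 6 of 41 held the NRF1 core, and among the Mrps windows 1 of 26. The NRF1 core nearly reads the same on both strands, so that a site can match on each. The windows were also richer in G and C, at a median of 58.7% against 52.7%. A match is a description of the letters and not evidence of binding. Mrpl46 and Mrps11 lie head to head on chromosome 7, with 141 bases of their windows shared. The bases before the start are shown, 5′ to 3′ on the gene's strand with motif matches in capitals, for the 4 genes that were higher with quercetin (Mrpl28, Mrpl41, Mrps24 and Mrpl51) and for Mrpl39, whose arrays did not overlap between the control and Western diets.

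Mrpl28 (chr17:26123253-26123502, plus strand): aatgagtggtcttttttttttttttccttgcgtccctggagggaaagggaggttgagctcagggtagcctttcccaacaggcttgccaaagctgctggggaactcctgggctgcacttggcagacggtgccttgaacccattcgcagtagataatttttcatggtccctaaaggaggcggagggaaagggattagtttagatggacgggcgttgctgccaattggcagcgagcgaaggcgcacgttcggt
Mrpl41 (chr2:24975099-24975348, minus strand): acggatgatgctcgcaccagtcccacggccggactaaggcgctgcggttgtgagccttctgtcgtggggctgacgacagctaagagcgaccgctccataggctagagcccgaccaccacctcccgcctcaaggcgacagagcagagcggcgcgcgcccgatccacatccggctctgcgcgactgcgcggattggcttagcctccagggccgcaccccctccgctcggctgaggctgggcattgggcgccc
Mrps24 (chr11:5707702-5707951, minus strand): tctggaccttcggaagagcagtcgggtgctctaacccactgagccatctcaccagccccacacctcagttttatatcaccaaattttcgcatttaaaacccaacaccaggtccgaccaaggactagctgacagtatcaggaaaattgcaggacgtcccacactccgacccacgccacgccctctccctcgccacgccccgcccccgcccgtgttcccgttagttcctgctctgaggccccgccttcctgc
Mrpl51 (chr6:125191950-125192199, plus strand): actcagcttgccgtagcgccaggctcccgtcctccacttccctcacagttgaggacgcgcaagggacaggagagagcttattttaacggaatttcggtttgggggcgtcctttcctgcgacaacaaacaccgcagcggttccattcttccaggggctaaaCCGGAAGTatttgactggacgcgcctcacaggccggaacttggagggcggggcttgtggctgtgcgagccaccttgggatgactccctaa
Mrpl39 (chr16:84735245-84735494, minus strand): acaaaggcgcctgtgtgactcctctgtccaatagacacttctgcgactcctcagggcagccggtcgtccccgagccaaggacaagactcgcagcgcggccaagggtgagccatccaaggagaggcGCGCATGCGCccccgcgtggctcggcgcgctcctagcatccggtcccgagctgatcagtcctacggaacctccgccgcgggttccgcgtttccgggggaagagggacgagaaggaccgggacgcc

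The capitals mark an ETS core in Mrpl51 and an NRF1 core, read on both strands, in Mrpl39. The stretches of Mrpl28, Mrpl41 and Mrps24 held none of the 3 motifs, and the YY1 core counted for Mrps24 lies after the start, in the part of the window not shown. Mrpl47 did not overlap between the control and Western diets either. Its window, not shown, held none of the 3 motifs.

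The comparison of the Western diet with the control diet asked what 18 weeks of this diet did to these genes in EAT. Mrpl47, Mrpl39, Mrpl51, Mrps15 and Mrps9 fell, Mrps33, Mrps22, Mrpl27, Mrpl54 and Mrpl13 rose, and 66 genes did not pass the threshold (limma, Benjamini-Hochberg over all 18193 genes, adjusted p under 0.05). Over all genes tested 11.3% rose and 6.44% fell, so that 5 of 76 lay below the first share and near the second. Without control replicate 6, the array with testis transcripts, 6 members rose and 12 fell (11.6% and 10.3% of all genes), and without the 5 arrays high in transcripts of other tissues 2 rose and 11 fell (9.84% and 9.38%). The median log2 fold change of the 76 genes was -0.02, and 32 of them (42.1%) were above 0, against 50% of all genes. At an unadjusted p under 0.05, 11 were higher and 13 lower, where 17.6% and 13.1% of all genes were.

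Mrpl51, a large-subunit protein with no bacterial counterpart (chromosome 6, 125192200 to 125194392), gave the smallest p. Its log2 signal ran from 10.93 over a median of 11.16 to 11.42 in control mice, and from 10.58 over 10.78 to 10.92 in mice fed the Western diet. Every mouse fed the Western diet was below every control mouse. The log2 fold change was -0.41 ± 0.06 (SE; limma adjusted p = 6.39e-05). Mrpl39, a large-subunit protein that resembles threonyl-tRNA synthetase (chromosome 16, 84718281 to 84735244), was between 10.57 and 11.80 in control mice (median 10.76) and between 10.39 and 10.53 on the Western diet (median 10.43). These groups did not overlap either, and the difference was -0.45 ± 0.11 (SE; limma adjusted p = 0.00465). Its control mice were spread widely and its Western mice closely (SD 0.38 and 0.04, n = 9 each). Mrpl47, the counterpart of bacterial L29 near the exit of the peptide tunnel (chromosome 3, 32727497 to 32736755), ran from 8.04 over 8.24 to 10.01 in control mice and from 7.54 over 7.78 to 7.97 on the Western diet, with a log2 fold change of -0.66 ± 0.18 (SE; limma adjusted p = 0.00836). The highest control value of both Mrpl39 and Mrpl47 belonged to control replicate 6, the array with testis transcripts. Without it the changes were -0.34 (adjusted p = 0.0011) and -0.47 (adjusted p = 0.000719). Mrpl39, Mrpl47 and Mrpl51 were the only members without overlap between these diets, where 1.3% of all genes had none.

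Mrps15 and Mrps9, small-subunit proteins with bacterial counterparts, fell by 0.33 (limma adjusted p = 0.003) and by 0.28 (limma adjusted p = 0.0372) on the log2 scale, and both overlapped between diets. Another probe set of Mrps15 gave the same difference (-0.33), whereas the 3 other probe sets of Mrps9 gave -0.15, -0.13 and -0.12 and did not pass. The call on Mrpl47 rests on its probe set, since the other 2, at lower signals, gave 0.05 and 0.85 and did not pass. The other probe sets of Mrpl39 (-0.27) and of Mrpl51 (-0.22 and -0.13) did not pass either. Some members that were not called had another probe set that passed when all probe sets were tested. Those of Mrpl11 (-0.28), Mrpl9 (-0.22) and, at a low signal, Mrps10 (-1.49) fell, and those of Mrps14 (0.47) and Mrps25 (0.31) rose. With each array only shifted to a common median, Mrps15 (-0.20) and Mrps9 (-0.18) did not pass, Mrpl39 (-0.27), Mrpl51 (-0.23) and Mrpl47 (-0.56) passed, and the 5 genes that rose differed by 0.33 to 0.43.

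Among the 5 genes that rose, Mrps33, a small-subunit protein found only in mitochondria, had the smallest p and ran from 9.30 over 9.62 to 9.85 in control mice and from 9.77 over 9.91 to 10.04 on the Western diet (log2 fold change 0.31 ± 0.06, SE; limma adjusted p = 0.00119). In 6 of the 9 mice fed the Western diet it exceeded every control mouse. Mrpl13, a counterpart of bacterial L13, ran from 9.70 over 10.03 to 10.20 and from 10.04 over 10.23 to 10.33 (0.21 ± 0.06, SE; limma adjusted p = 0.00898). Its 3 other probe sets gave -0.02, 0.10 and 0.30 and did not pass. Mrpl27, which lies near the peptidyl transferase centre, differed by 0.28 (limma adjusted p = 0.00577), Mrps22 by 0.29 (limma adjusted p = 0.0464) and Mrpl54 by 0.22 (limma adjusted p = 0.0392). Mrps22 is 1 of the members mutated in inherited mitochondrial disease in humans. The second probe set of Mrpl54 gave -0.63 at a low signal and did not pass. Mrps22 did not pass when all probe sets were tested (limma adjusted p = 0.0525). Leaving out 1 mouse at a time ended the call on Mrps22 in 19 of 27 fits, on Mrpl54 in 13 and on Mrps9 in 9. The highest value was that of Mrpl33, 0.35 ± 0.14 (SE), which did not pass (limma adjusted p = 0.0836).

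The comparison of the Western diet with and without quercetin showed small differences, positive in 66 of the 76 genes after quantile normalization and in 41 when each array was only shifted to a common median. Mrpl28, Mrpl41, Mrps24 and Mrpl51 rose, none fell, and 72 did not pass (limma, adjusted p under 0.05 over all genes). Over all genes tested 0.253% rose and 0.077% fell. The 66 positive values were 86.8% of the members, against 53.5% of all genes, and the median was 0.11 against 0.02. At an unadjusted p under 0.05, 19 were higher and 0 lower, where 7.31% and 6.41% of all genes were. The study's own test (a one-way test over the 3 diets followed by Tukey comparisons), run here on the quantile-normalized values, called 12 higher and 0 lower, and 2.61% and 2.91% of all genes. As run here, its one-way p was adjusted over all genes and its Tukey p was not, so its counts and those of limma are not at the same threshold.

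**Figure D1:**
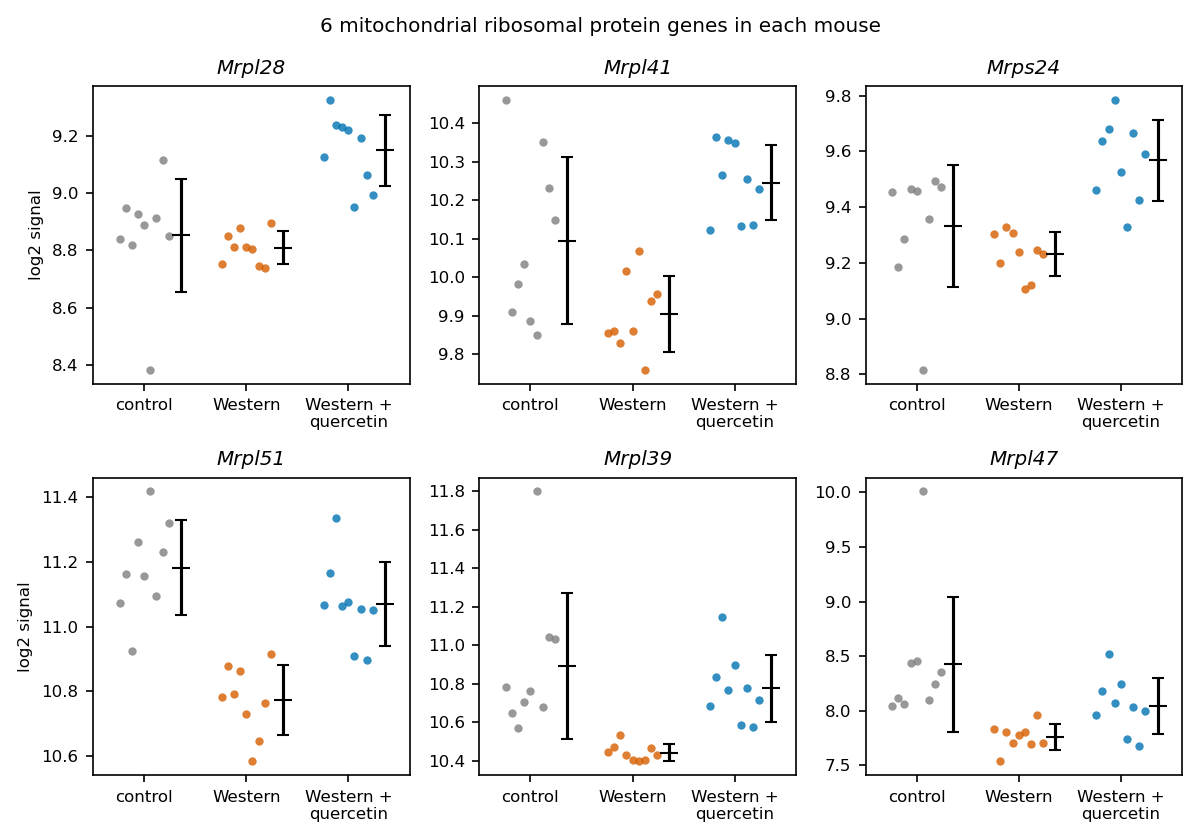
Log2 signal of 6 genes in each mouse, by diet, after quantile normalization. Points are mice in the order of their replicate numbers, and the bar beside each group is the mean with the SD (n = 9). Mrpl28, Mrpl41 and Mrps24 are higher in all 9 mice given quercetin than in any mouse on the Western diet alone, Mrpl51 and Mrpl39 are lowest on the Western diet, and control replicate 6 stands apart at 8.38 in Mrpl28, 8.82 in Mrps24, 11.80 in Mrpl39 and 10.01 in Mrpl47.

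Mrpl28, a counterpart of bacterial L28 (chromosome 17, 26123503 to 26126613), ran from 8.74 over a median of 8.81 to 8.90 on the Western diet and from 8.95 over 9.19 to 9.33 with quercetin. The log2 fold change was 0.34 ± 0.07 (SE; limma adjusted p = 0.0338). Control mice had a mean of 8.85 ± 0.20 (SD, n = 9), close to the Western mean of 8.81 ± 0.06. Mrpl41, a large-subunit protein of mitochondria only (chromosome 2, 24972470 to 24975098), ran from 9.76 over 9.86 to 10.07 and with quercetin from 10.12 over 10.26 to 10.36 (0.34 ± 0.07, SE; limma adjusted p = 0.0345). Mrps24, the counterpart of bacterial S3 at the messenger RNA entry (chromosome 11, 5703982 to 5707701), ran from 9.11 over 9.24 to 9.33 and with quercetin from 9.33 over 9.59 to 9.79 (0.34 ± 0.08, SE; limma adjusted p = 0.0464). For all 3 genes every quercetin-fed mouse lay above every mouse on the Western diet alone, in Mrps24 by the narrowest margin (9.3305 against 9.329). Mrpl51 ran from 10.58 over 10.78 to 10.92 and with quercetin from 10.90 over 11.06 to 11.34, with 7 of the 9 quercetin-fed mice above all others (0.30 ± 0.06, SE; limma adjusted p = 0.0415).

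Mrpl39 was higher in all 9 quercetin-fed mice (10.58 to 11.15) than in any mouse on the Western diet alone (10.39 to 10.53), but its difference of 0.33 ± 0.11 (SE) did not pass (limma adjusted p = 0.143). The fit shares 1 spread over the 3 diets, so the control mice, widely spread in this gene, enter that SE. Leaving out 1 mouse at a time made the difference pass in 1 of 27 fits. With Mrpl39, 4 members did not overlap between these diets, where 0.269% of all genes had no overlap. The widest difference of all was that of Mrps9, 0.35 ± 0.09 (SE; limma adjusted p = 0.0868), and Mrpl44, an RNase III-like protein of the large subunit, differed by 0.28 ± 0.08 (SE; limma adjusted p = 0.0962). The lowest values were those of Mrps22 (-0.09), Mrpl19 (-0.09) and Mrps28 (-0.09).

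These 4 calls depended on the probe set and on the scaling. The probe sets used for Mrpl28 and Mrps24 are of the kinds that Affymetrix marks as able to bind related transcripts (suffixes x and s), and the other probe sets of Mrpl28 gave 0.14 and 0.03, that of Mrps24 -0.04, those of Mrpl41 0.15 and 0.56 and those of Mrpl51 0.19 and -0.07, none of which passed. Mrpl11 was not called (0.08), but another of its probe sets, with suffix x, gave 0.38. It passed when all probe sets were tested (limma adjusted p = 0.0323). In that test the probe sets used for Mrpl28 and Mrpl41 passed (limma adjusted p = 0.0369 and 0.0442). Those used for Mrpl51 and Mrps24 did not (limma adjusted p = 0.051 and 0.0526). When each array was only shifted to a common median, the 4 differences were 0.24 (Mrpl28), 0.24 (Mrpl41), 0.23 (Mrps24) and 0.21 (Mrpl51), and no member passed. With that scaling 0 (0%) of all genes rose and 3 (0.0165%) fell. Leaving out 1 mouse at a time ended the call on Mrpl28 in 11 of 27 fits, on Mrpl41 in 12, on Mrpl51 in 15 and on Mrps24 in 19.

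**Figure D2:**
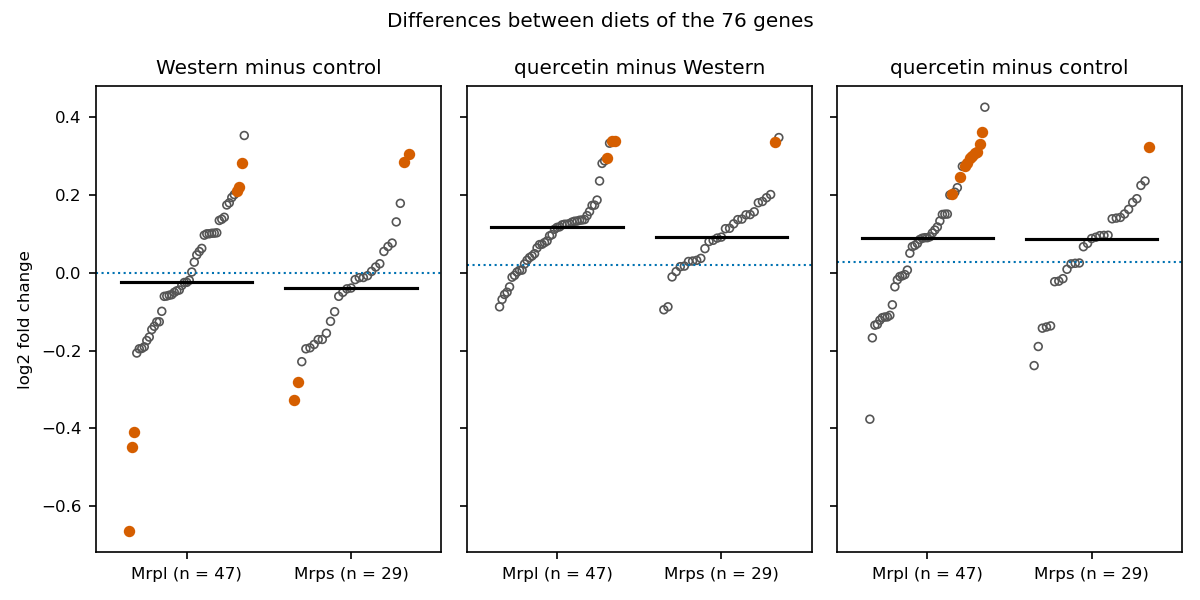
Log2 fold change of each of the 76 genes in the 3 comparisons, Mrpl genes left and Mrps genes right in each panel, ordered by size. Filled points passed an adjusted p under 0.05 (limma), black lines are the medians and the dotted line is the median of all 18193 genes. With quercetin against the Western diet most points lie above 0 in both subunits (median 0.12 and 0.09, but 0.01 and 0.00472 with each array only shifted to a common median), while the Western diet against control spreads to both sides (-0.02 and -0.04, and 0.10 and 0.07 with the shift).

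The mice given quercetin were then compared with control mice, the same quercetin-fed mice as above and the same control mice as in the first comparison. Here 11 genes rose (Mrpl13, Mrpl15, Mrpl16, Mrpl27, Mrpl28, Mrpl36, Mrpl42, Mrpl44, Mrpl54, Mrpl57 and Mrps33) and 0 fell by limma. Over all genes tested 5% rose and 1.65% fell. At an unadjusted p under 0.05, 25 were higher and 2 lower (14.5% and 7.36% of all genes), and by the study's own test 10 were higher and 1 lower (5.35% and 1.57%). With each array only shifted to a common median 4 members rose (Mrpl13, Mrpl16, Mrpl54 and Mrpl57) and 0 fell, where 2.03% and 0.704% of all genes did. The median was 0.09 against 0.03 for all genes, and 53 of the 76 (69.7%) were above 0, against 54% of all genes. No member was without overlap, which 0.253% of all genes were. Leaving out 1 mouse at a time ended the call on Mrpl27 in 6 of 27 fits, on Mrpl42 in 3 and on Mrpl44 in 1.

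Mrpl16, a counterpart of bacterial L16, ran from 8.97 over 9.03 to 9.40 in control mice and from 9.22 over 9.49 to 9.76 with quercetin (0.36 ± 0.07, SE; limma adjusted p = 0.00322). On the Western diet alone it was in between (9.10 over 9.28 to 9.56), and neither of its other differences passed (0.17 and 0.19). Mrpl36, a counterpart of bacterial L36, ran from 8.08 over 8.26 to 8.41 and from 8.26 over 8.66 to 8.84 (0.33 ± 0.08, SE; limma adjusted p = 0.014), again with an intermediate Western mean of 8.44 ± 0.18 (SD, n = 9). Mrpl42, of mitochondria only, differed by 0.31 ± 0.08 (SE; limma adjusted p = 0.0271) and Mrpl28 by 0.30 ± 0.07 (SE; limma adjusted p = 0.0107). Mrpl13 (0.31, limma adjusted p = 0.00165), Mrps33 (0.32, limma adjusted p = 0.00322), Mrpl27 (0.25, limma adjusted p = 0.0353) and Mrpl54 (0.30, limma adjusted p = 0.0165) were among them too. On the Western diet alone these 4 differed from control by 0.21, 0.31, 0.28 and 0.22, whereas their differences between the Western diets (0.10, 0.02, -0.04 and 0.08) did not pass. Mrpl33 had the highest value, 0.43 ± 0.14 (SE), and did not pass (limma adjusted p = 0.0659). Mrps14 (0.14) and Mrps25 (0.03) were not called, but another probe set of each gave 0.59 and 0.36. These passed when all probe sets were tested (limma adjusted p = 0.017 and 0.0323). Among the genes that rose, another probe set of Mrpl44 passed (0.29, limma adjusted p = 0.023), and its further ones (0.17 and 0.11) did not. The other probe sets of Mrpl28 (0.09 and 0.21) and Mrpl13 (0.23, 0.43 and 0.14) did not pass. None of those of Mrpl15 (-0.58 to 0.66), Mrpl27 (0.44), Mrpl42 (0.35), Mrpl54 (0.29) and Mrpl57 (0.32) passed either.

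For the 5 genes that fell on the Western diet, the differences of quercetin-fed from control mice did not pass. Mrpl51 differed from control by -0.11 ± 0.06 (SE; limma adjusted p = 0.304), Mrpl39 by -0.12 ± 0.11 (SE; limma adjusted p = 0.595), Mrpl47 by -0.38 ± 0.18 (SE; limma adjusted p = 0.204), Mrps9 by 0.07 ± 0.09 (SE; limma adjusted p = 0.739) and Mrps15 by -0.24 ± 0.08 (SE; limma adjusted p = 0.0554). A p that misses the threshold does not show that the levels were equal. The 3 comparisons share their mice pairwise, so these values are given side by side and not as separate evidence.

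The large and the small subunit were set against each other. In the Western against control comparison 3 of 47 Mrpl genes rose and 3 fell, and 2 of 29 Mrps genes rose and 2 fell, with medians of -0.02 and -0.04. Over all genes 11.3% rose and 6.44% fell. With quercetin against the Western diet 3 Mrpl genes and 1 Mrps gene rose, where 0.253% of all genes did. The medians were 0.12 and 0.09, with positive values in 40 of 47 and 26 of 29. Against control 10 Mrpl genes and 1 Mrps gene (Mrps33) rose with quercetin, at equal medians of 0.09, where 5% of all genes rose. The counts of the subunits were not tested against each other. The difference between the medians of both subunits was 0.01, 0.03 and 0.00219 in the order of these comparisons, beside an SD of 0.0298 between mice of a diet in the difference of the subunits' median deviations. This SD is the spread of single mice and not the error of a difference between diets of 9 mice. The differences between the subunits were not tested against such an error. Without control replicate 6 the first difference was 0.0574. Without the 5 arrays high in transcripts of other tissues the differences for the Western diet and for quercetin, each against control, were 0.0577 and 0.0465. Taken per mouse, the Mrpl minus Mrps difference was -0.02 ± 0.04 in control mice, 0.01 ± 0.02 in Western mice and -0.00271 ± 0.03 in quercetin-fed mice (SD, n = 9 each), and the diets overlapped. By this measure quercetin-fed mice averaged below Western mice, whereas the difference between the medians was 0.03. The sign for quercetin against the Western diet thus depended on the measure. By structure Mrps18a and Mrps30 sit in the large subunit and Mrps36 belongs to the 2-oxoglutarate dehydrogenase complex. Moving them gave differences of 0.00346, 0.00938 and 0.000517.

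The members were also taken by origin. The 45 members with a bacterial counterpart had medians of -0.02 (Western against control), 0.11 (quercetin against Western) and 0.09 (quercetin against control), and the 31 without had -0.03, 0.09 and 0.09. With quercetin against control 6 of the 45 members with a bacterial counterpart and 5 of the 31 without rose, where 5% of all genes did.

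Of 12 members chosen for their roles, only Mrps22 (Western against control) and Mrpl44 (quercetin against control) passed in any comparison. Mrpl12, which is also known to bind mitochondrial RNA polymerase, had 9.91 ± 0.04 in control mice, 9.78 ± 0.07 in Western mice and 9.92 ± 0.12 in quercetin-fed mice (SD, n = 9 each). In 8 of the 9 mice on the Western diet it was below every control mouse, yet the difference of -0.13 ± 0.05 (SE) did not pass (limma adjusted p = 0.0607). Mrps12, of the decoding centre, differed by -0.18 ± 0.07 on the Western diet (SE; limma adjusted p = 0.0505) and by 0.19 ± 0.07 with quercetin against it (SE; limma adjusted p = 0.156). Mrpl45, which ties the ribosome to the inner membrane at the tunnel exit, differed by -0.17 and 0.04 in these comparisons. The paralogs Mrps18a, Mrps18b and Mrps18c differed by -0.16, 0.02 and -0.06 on the Western diet and by 0.02, 0.08 and 0.16 with quercetin, and none passed. Mrps30 differed by -0.17 and 0.03, and Mrps36 by 0.00 and 0.14. Among further members mutated in inherited mitochondrial disease in humans, Mrpl3 had 8.54 ± 0.25, 8.64 ± 0.08 and 8.81 ± 0.18 on the control, Western and quercetin diets (SD, n = 9 each; quercetin against control 0.27, limma adjusted p = 0.0547), Mrpl44 had 8.96 ± 0.23, 8.96 ± 0.10 and 9.24 ± 0.12, and Mrps16 had 9.37 ± 0.30, 9.17 ± 0.14 and 9.35 ± 0.26, with no difference in Mrps16 that passed.

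Per mouse, the 76 genes were summarised by the median of their deviations from each gene's own mean over the 27 mice. This was -0.04 ± 0.10 in control mice, -0.03 ± 0.07 in Western mice and 0.07 ± 0.10 in quercetin-fed mice (SD, n = 9 each). The ranges were -0.25 to 0.09, -0.15 to 0.09 and -0.12 to 0.26, so the diets overlapped. The number of genes above their own median was 24 to 49 in control mice, 6 to 51 on the Western diet and 12 to 70 with quercetin. Quercetin replicate 3 had 70 and quercetin replicate 8 had 12. When each array was only shifted to a common median, the means of the median deviation were -0.08 ± 0.20, 0.03 ± 0.17 and 0.04 ± 0.14.

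The scaling of the arrays set the sign of the group's median on the Western diet. With quantile normalization the median was -0.02, with a shift of each array to a common median it was 0.08, and with the deposited values as they were it was -0.03. The genes above the median signal of all genes, to which 75 of the 76 belong, moved too, with medians of 0.01, 0.11 and -0.00354. For quercetin against the Western diet the 3 medians of the members were 0.11, 0.0066 and 0.14, beside 0.02, -0.07 and 0.06 for the genes above the median signal. Against control the members' medians with quercetin were 0.09, 0.10 and 0.12, beside 0.04, 0.05 and 0.06. Under each of the 3 scalings the members' median thus lay above that of these genes in both quercetin comparisons, and below it in the Western comparison.

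**Figure D3:**
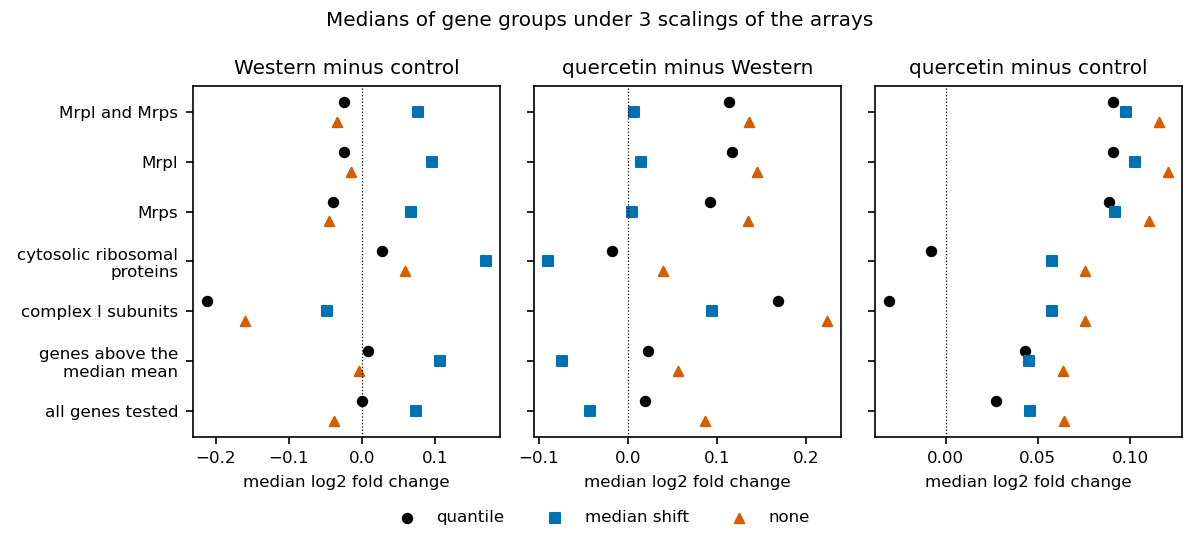
Median log2 fold change of the mitochondrial ribosomal protein genes and of other gene groups in the 3 comparisons, under quantile normalization (circles), a shift of each array to a common median (squares) and no normalization (triangles). For quercetin against the Western diet the squares lie left of the circles in every group, with 0.0066 against 0.11 for the 76 genes.

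The machinery around the mitoribosome was described from gene lists. Over all genes 11.3% rose and 6.44% fell on the Western diet, and 0.253% and 0.077% with quercetin against it. Against control 5% of all genes rose and 1.65% fell with quercetin. The 42 genes measured of the cytosolic ribosome showed medians of 0.03 (Western against control) and -0.02 (quercetin against Western), 1 rose and 0 fell in the first comparison and none passed in the second (3 higher and 5 lower at an unadjusted p under 0.05). Their median with quercetin was -0.09 after a shift of the arrays to a common median and 0.04 without normalization, in both cases below that of the mitochondrial ribosomal protein genes. The 35 subunits of respiratory complex I, several of whose partners the mitoribosome makes, showed a median of -0.21 on the Western diet, where 21 fell and 0 rose, and of 0.17 with quercetin against it, where Ndufa5 (0.41), Ndufb10 (0.35) and Ndufc1 (0.34) rose (limma adjusted p = 0.031, 0.0238 and 0.0238). The mitoribosomal proteins known by other symbols (Dap3, Ptcd3, Chchd1 and Gadd45gip1) showed a median of -0.10 (Western against control) and of 0.10 (quercetin against Western), and none passed in either.

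Of 25 genes for mitoribosome assembly and rRNA modification, 4 fell on the Western diet and none rose. These were Dhx30, an RNA helicase of assembly (-0.52, limma adjusted p = 4.43e-04), Mterf3 (-0.37, limma adjusted p = 0.00627), Mettl17 (-0.34, limma adjusted p = 0.0475) and Ngrn (-0.33, limma adjusted p = 0.0194). With quercetin against the Western diet their list had a median of 0.15 and 23 of 25 positive values, but none passed (6 higher and 0 lower at an unadjusted p under 0.05). Trub2, a pseudouridine synthase, rose with quercetin against control by 0.85 (limma adjusted p = 0.00535). Among 13 translation factors and mRNA stability factors, Tufm, the mitochondrial elongation factor Tu, rose with quercetin against the Western diet by 0.52 (limma adjusted p = 0.031) and against control by 0.42 (limma adjusted p = 0.0135). Tsfm, its exchange factor, fell by 0.31 against control (limma adjusted p = 0.0419). Among 19 mitochondrial aminoacyl-tRNA synthetases and related enzymes, Gatb fell on the Western diet (-0.68, limma adjusted p = 0.0174) and Yars2 rose with quercetin against control (0.42, limma adjusted p = 0.0453). Their medians were -0.14 on the Western diet and 0.11 with quercetin against it. Of the genes in mitochondrial DNA only ND5 was read by a probe set of 1 gene, with 13.29 ± 0.27, 12.99 ± 0.18 and 13.24 ± 0.27 on the control, Western and quercetin diets (SD, n = 9 each), and none of its differences passed.

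Markers of other cell types and RNA measures differed between the diets along with these results. All 9 macrophage markers rose on the Western diet, with a median log2 fold change of 1.79. With quercetin against the Western diet all 9 had negative values (median -0.85) and none passed. Of 4 fibroblast markers 3 rose on the Western diet (Col1a1, Col1a2 and Pdgfra, median of the list 0.42), and all 4 had negative values with quercetin against it (median -0.30, none passed). Their summed signal was 10560 to 15220 in control mice, 12510 to 16770 in Western mice and 11110 to 14140 in quercetin-fed mice. Of 4 smooth muscle markers 2 fell on the Western diet (Myh11 and Cnn1, median -1.28), with sums of 3406 to 28800, 3039 to 4777 and 3396 to 5624. Of 4 mesothelial markers Krt19 fell on the Western diet (-3.61) and with quercetin against control (-3.41), the medians being -1.33 and -1.95 and the sums 142.6 to 1573, 57.92 to 322.9 and 52.37 to 219.4. The part of these cell types in the values of the mitochondrial ribosomal protein genes was not tested. The 3′ to 5′ signal ratio of the array's own Gapdh probe sets (log2), a measure of RNA integrity, was 0.14 ± 0.24, -0.05 ± 0.14 and 0.19 ± 0.18 on the control, Western and quercetin diets, and that of actin was 1.11 ± 0.29, 0.79 ± 0.12 and 1.14 ± 0.19 (SD, n = 9 each). It was lowest on the Western diet for both, and its part in the results was not tested either. Without the 5 arrays high in testis, smooth muscle or liver transcripts, 10 members rose and 0 fell with quercetin against the Western diet (2.73% and 2.48% of all genes), and 7 rose and 1 fell against control (2.83% and 2.14%). The members' medians were then -0.07 (Western against control), 0.13 and 0.06. Among the genes named for their change or role, Mrps22, Mrpl27, Mrpl54 and Mrpl13 then no longer passed on the Western diet. Against control, Mrpl27, Mrpl42 and Mrpl44 no longer passed with quercetin. Other differences passed only without these arrays. Mrpl41, Mrpl12 and Mrps12 were lower on the Western diet. Mrpl39, Mrps9, Mrpl16, Mrps12 and Mrpl44 were higher with quercetin against it, and Mrps15 was lower with quercetin against control.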

How the data were processed

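EAT of 27 mice, 9 per diet, was measured on 1 Affymetrix array each. The authors made the deposited values with Affymetrix's Microarray Suite, which gives 1 linear signal intensity per probe set. The tissue label and the study's methods name EAT, while the extraction note in the labels speaks of liver. The array holds 45101 probe sets. Of these, 64 are controls and were left out, 34945 carry 1 gene symbol, 932 several and 9160 none in the platform annotation used here.

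Intensities were quantile normalized between arrays, set to a floor of 1 and taken to log2. The probe set with the highest mean stood for each of 18193 genes. Diets were compared with limma 3.58.1 in R 4.3.3 (lmFit, then eBayes with a trend) on all 27 arrays, and p-values were adjusted by Benjamini-Hochberg across every gene tested, with a threshold of 0.05. Errors are the SE of limma or the SD between mice, and the number of arrays limits the precision. The fit was tested on simulated data. No 2 arrays held identical values. Replicate numbers did not pair the mice, since at most 2 of 9 same-numbered pairs correlated above 0.1. Alternatives were other scalings, floor, filter, probe set rule, array weights, 2-diet fits, the replicate block, the test of the study and leaving out arrays. Genes were named by 2 rules: up to 6 per comparison and direction with the largest change among those past the threshold, and 12 by role. Mrpl9, Mrpl11, Mrpl15, Mrpl19, Mrpl33, Mrpl57, Mrps10, Mrps14, Mrps25 and Mrps28 were named after their values were seen. Promoter sequences are from RefSeq (GRCm38.p6). The members and gene lists were chosen with earlier results of these data known.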

Additional observations from a re-analysis of the deposited data

Results flagged for a closer look

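Within each diet, 90 sets of 9 values (27 named genes and 3 summaries of the whole gene group) were searched for 1 mouse far from the rest, and 12 were found; chance gives about 1 in 20. Control replicate 6, the array with testis transcripts, accounted for 7 of them. It was far above the other control mice in Mrpl47 (10.01, the next at 8.46) and Mrpl39 (11.80, the next at 11.04). It was far below them in Mrpl28 (8.38, the next at 8.82), Mrps24 (8.82, the next at 9.18) and Mrpl44 (8.37, the next at 8.90). Its median deviation over the 76 genes was -0.25 (the next at -0.08), and over the Mrpl genes -0.26 (the next at -0.07). Whether the testis transcripts account for these values was not tested.

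Quercetin replicate 3 was far above the other mice of its diet in Mrpl44 (9.54, the next at 9.28) and Mrps16 (9.93, the next at 9.45). Western replicate 2 was low in Mrps16 (8.83, the next at 9.14). Mrps12 was low in Western replicate 8 (8.95, the next at 9.21) and in quercetin replicate 8 (9.21, the next at 9.40).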

How the results depend on the processing

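Without normalization 0 members rose and 3 fell on the Western diet (5 and 5 above), 0 rose with quercetin against the Western diet (4) and 0 rose against control (11). With each array shifted to a common median 8 rose and 3 fell on the Western diet, 0 rose with quercetin against it and 4 rose against control, and the medians of the first 2 comparisons were 0.0776 and 0.00659. Among only the genes above the median signal 8 members fell on the Western diet and 1 fell with quercetin against control. With a gene's probe sets averaged 2 rose and 3 fell on the Western diet, 0 rose with quercetin against it and 4 rose against control; Mrpl54 (-0.20) and Mrpl47 (0.0793) changed sign on the Western diet, neither past the threshold, their further probe sets being of low signal. With array weights 10 fell on the Western diet, where the large minus small subunit difference was 0.066, 12 rose with quercetin against it and 1 fell against control. Fits of only the 2 diets compared gave 3 higher on the Western diet, 9 with quercetin against it and 4 against control. The study's own test gave 12 higher with quercetin against the Western diet and 1 lower against control. Without the 5 arrays high in transcripts of other tissues, an alternative chosen after seeing the data, 2 rose and 11 fell on the Western diet (large minus small 0.0577), 10 rose with quercetin against it, and 7 rose and 1 fell against control (large minus small 0.0465). With the replicate number as a block 0 members rose with quercetin against the Western diet. The numbers do not pair the mice, since same-numbered mice correlated between -0.33 and 0.18 in their deviations and each number was the best match of its own in at most 1 of 9. The share of all genes called moved with the setting too. For genes higher with quercetin against the Western diet it was 0.253% in the main fit and 0% with the median shift. It was 2.61% by the study's own test and 2.73% without the 5 arrays. Where no share of all genes is given, here and below, a count cannot be read as a result about the members. The cause of these shifts was not tested.

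Leaving out each mouse in turn gave 3 to 7 higher and 4 to 12 lower on the Western diet (12 without control replicate 6), 0 to 7 higher with quercetin against it (7 without control replicate 6), and 8 to 14 higher and 0 to 1 lower against control. In the quercetin and Western comparison 17 of the 27 such fits moved the count by more than 1.5 times. The large minus small subunit difference was between -8.05e-05 and 0.0574 on the Western diet, between -0.0126 and 0.0419 with quercetin against it and between -0.0145 and 0.0326 against control. Of the 23 calls on named genes, 22 were kept with a floor of 32, all 23 among the genes above the median signal and with array weights, 19 by the study's own test, 17 with the block, 16 without the 5 arrays, 15 with 2 diets, 11 with the median shift, 8 with the mean of probe sets and 3 without normalization, and no call changed sign except the 2 above.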
